A study of Mus musculus with 12 samples.

Results

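The metallothioneins Mt1 and Mt2, their transcriptional regulator Mtf1 and 7 membrane transporters of zinc were followed in the tibialis anterior, a fast hindlimb muscle, of mdx/mTR and wild-type mice. These 10 genes were taken by symbol from a table of 24421 genes, and they had been picked with the difference between the groups already known. Their values between the groups are therefore a description and carry no test. RNA sequencing covered 6 male C57Bl/6 mice (WT) and 6 male mdx/mTR mice, all aged 4 months. The mdx allele disables Dmd, which encodes dystrophin, and mTR is the RNA component of telomerase, encoded by Terc. The labels give mdx/mTR as a strain only, so the telomerase generation and the Terc genotype of each mouse are not known here, and effects of the 2 alleles cannot be told apart. The labels do not say that every library came from a separate mouse, and p-values measure only the spread between these samples.

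Metallothioneins are small cysteine-rich proteins that bind zinc and copper and scavenge oxidants. Free zinc in the cell activates MTF1, which enters the nucleus, binds short metal response elements and switches on Mt1, Mt2 and the zinc exporter Slc30a1. Glucocorticoids and cytokines of the IL-6 family also induce Mt1 and Mt2, and muscle is known to express both genes more strongly in wasting and after injury. Proteins of the SLC30 family (ZnT) move zinc out of the cytosol, either out of the cell or into vesicles, and proteins of the SLC39 family (ZIP) move it in.

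The core of the metal response element was looked for in the promoters, because MTF1 acts on Mt1, Mt2 and Slc30a1 through that element. The letters searched were TGCACNC and TGCGCNC, on both strands, in the RefSeq window from 250 bases before to 50 bases after each gene's start (GRCm38.p6). A window was found for 9 of the 10 genes, and Slc39a14 had none. At least 1 match was present in 25.7% of all 32851 windows of that length, at least 2 in 7.11% and at least 4 in 0.517%. The Mt2 window held 4 matches, the Mt1 window 3, and those of Slc30a4, Slc30a1 and Slc30a2 held 3, 2 and 2. The windows of Mtf1 and Slc39a1 and both windows of Slc39a10 held 0 matches, and the pair of Slc39a8 windows held 0 and 1. Those of Mt3 and Mt4, metallothionein genes outside the 10, held 1 match each. A match describes the letters only, since binding of MTF1 was not measured.

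The 250 bases before the start of Mt2 lie at chr8:94172368-94172617, on the + strand as the gene. Capitals mark matches, and a match on the other strand reads as its reverse complement. The match that follows the RefSeq start (chr8:94172618) is shown with its flanks at chr8:94172614-94172636. GENCODE M21 places the start of Mt2 at 94172664, so this match lies before the start in that annotation. The names of the sequences refer to the RefSeq start.
Mt2 window: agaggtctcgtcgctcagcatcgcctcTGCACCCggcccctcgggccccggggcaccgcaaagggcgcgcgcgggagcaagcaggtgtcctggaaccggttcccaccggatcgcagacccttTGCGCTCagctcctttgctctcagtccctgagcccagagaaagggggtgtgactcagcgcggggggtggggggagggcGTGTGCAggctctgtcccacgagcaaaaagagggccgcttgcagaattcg
Mt2 match after the start: ttcgggtcGTGCGCAggcccagg

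The 3 matches of Mt1, on the + strand, lie closer together, at chr8:94179058-94179080, chr8:94179083-94179105 and chr8:94179101-94179123 with their flanks. The RefSeq start of Mt1 is chr8:94179089, and the match named as at the start covers 94179091-94179097, just after it. GENCODE M21 places the start of Mt1 at 94179082. Counts of matches depend on the start used, and letters outside the windows were not searched. Both matches of Slc30a1, the textbook exporter target of MTF1, read as reverse complements at chr1:191906730-191906752 and chr1:191906803-191906825. They are shown for comparison. Slc30a1 differed little between the groups, and the cause was not tested.
Mt1 match before the start: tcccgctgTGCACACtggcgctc
Mt1 match at the start: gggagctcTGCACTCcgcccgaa
Mt1 match after the start: ccgaaaagTGCGCTCggctctgc
Slc30a1 match before the start: ggggttccGAGTGCAaagcaaag
Slc30a1 match after the start: tccgggccGAGCGCAgtcgccgc

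The 6 WT libraries held 36903560 to 40981012 counts each and the 6 mdx/mTR libraries 35136327 to 60330410. Levels are in CPM (each gene's count relative to its library's total, after scaling by the trimmed mean of M-values), and 3 counts corresponded to 0.0460 to 0.0837 CPM. Dmd lay between 228 and 244 CPM in WT, while mdx/mTR libraries had 35.2 to 56.4 CPM. Terc was counted in 1 of 12 libraries, a WT one, so it does not check the second allele. The 8 markers of fast muscle fibres were all tested and summed to 181000 to 212000 CPM in WT libraries and 144000 to 199000 CPM in those of mdx/mTR, as the tissue label says. Of 13937 genes tested with edgeR's quasi-likelihood test, 48.3% passed an adjusted p of 0.05, 25% higher and 23.4% lower in mdx/mTR, and the median log2 fold change was 0.014. In 12.6% of genes all mdx/mTR libraries lay above all WT libraries, and in 12.6% below. All 10 zinc genes passed the filter on low counts, 4 were higher and 2 lower past the threshold, and their median log2 fold change was 0.23. At least 2-fold calls were made for 7.24% of genes with higher and 1.94% with lower levels, and included Mt1 and Mt2 among the former and Slc30a2 among the latter. Groups did not overlap for Mt1, Mt2 and Slc39a14, which were higher, and for Slc30a2, which was lower. Because the genes were chosen on this contrast, nothing is read from these counts.

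**Figure D1:**
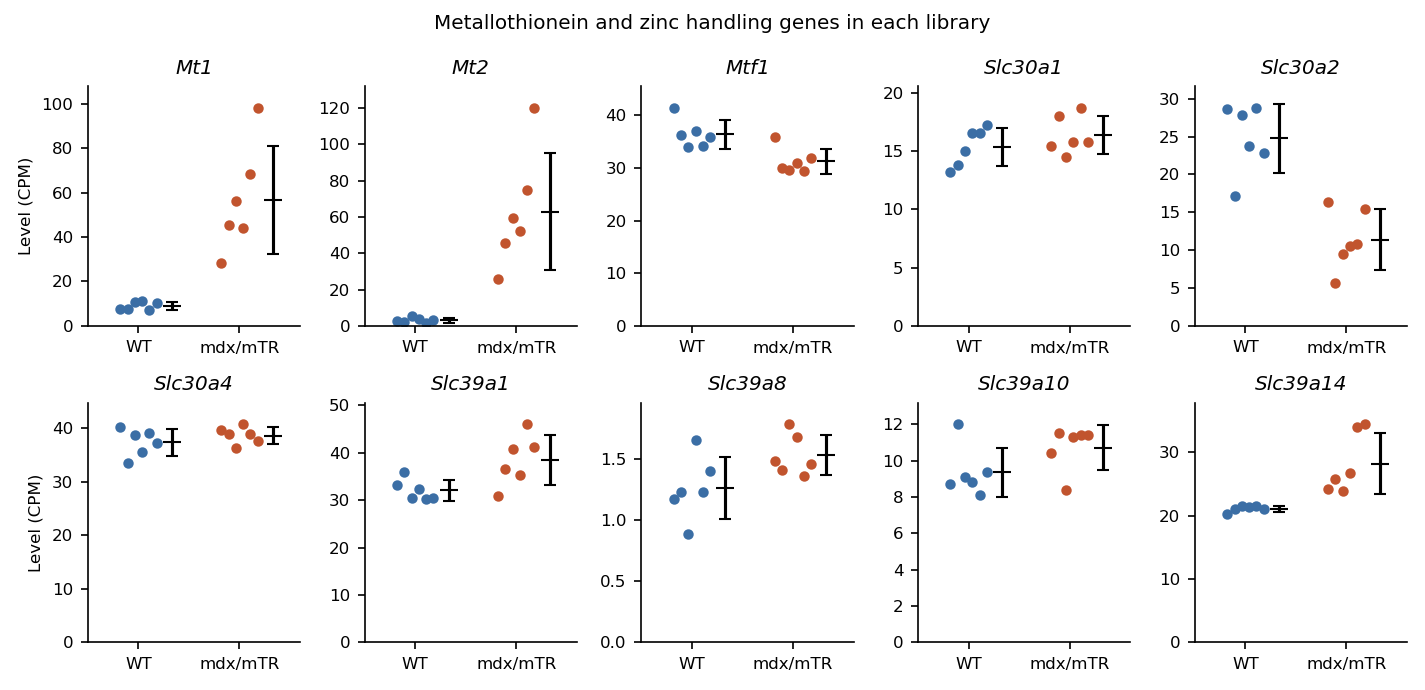
Level of each of the 10 genes in CPM (vertical axes, starting at 0) in the 6 WT (blue) and 6 mdx/mTR (orange) libraries, in order of replicate number, with the mean and SD as black bars. Mt1 and Mt2 stand far above WT in every mdx/mTR library, Slc39a14 slightly above and Slc30a2 below, while Slc30a1 and Slc30a4 share one range.

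Mt2 (chr8:94172664-94173568, GENCODE M21 on GRCm38) was the most changed of the 10 genes. In WT it was low, at 1.70 to 5.63 CPM with a median of 3.03, or 65 to 203 counts per library. In mdx/mTR it ran from 25.7 to 120 CPM with a median of 55.7. The lowest mdx/mTR library was thus far above the highest WT library. The mean was 3.22 ± 1.39 CPM among WT libraries and 62.8 ± 32.2 CPM among mdx/mTR libraries (SD, n = 6 each), a 19.5-fold difference and a log2 fold change of 4.29 ± 0.37 (SE). Part of the Mt2 transcript is covered on the opposite strand by the antisense gene Gm45774, which shares 45.5% of its 50-base stretches. Whether counting used the strand is not given in the sources used here, so reads of that gene cannot be told from those of Mt2.

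Mt1 (chr8:94179082-94180327) lies next to Mt2 on the same strand and moved the same way by less. Its WT libraries held 7.26 to 11.1 CPM with a median of 8.90, and its mdx/mTR libraries 28.4 to 98.1 CPM with a median of 50.7. Here too the groups did not overlap. The means of 9.11 ± 1.76 and 56.8 ± 24.3 CPM (SD, n = 6 each) gave a 6.23-fold difference and a log2 fold change of 2.64 ± 0.25 (SE). No 50-base stretch of the Mt1 transcript occurs in a transcript of another gene.

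The mdx/mTR libraries differed widely among themselves in both metallothioneins, and in the same order at the ends. Replicate 1 was lowest in both genes and replicate 6 highest in both. Leaving out replicate 6 of mdx/mTR gave log2 fold changes of 3.99 for Mt2 and 2.41 for Mt1. In WT, replicate 5 was lowest for both genes. Relative to the mean, the SD of Mt2 was 43.1% in WT and 51.2% in mdx/mTR, and that of Mt1 19.3% and 42.7%.

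Because Mt2 changed more than Mt1, the make-up of the pool shifted. Mt2 gave 25.3% ± 5.04 of the counts of both genes in WT libraries, compared with 51.7% ± 2.74 in mdx/mTR (SD, n = 6 each). The share ran from 19.0% to 34.3% in WT, where the 95% Wilson intervals of single libraries spanned 15.2% to 38.2%. It ran from 47.5% to 54.9% in mdx/mTR, with intervals from 45.7% to 55.8%. The ratio of Mt2 to Mt1 counts was 0.344 ± 0.0962 in WT but 1.08 ± 0.117 in mdx/mTR. All 6 mdx/mTR libraries lay above all 6 WT libraries in this share, and the intervals cover counting error only. Mt1 had more counts than Mt2 in all 6 WT libraries, and Mt2 had more in 5 of 6 mdx/mTR libraries. These counts are not corrected for transcript length.

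**Figure D2:**
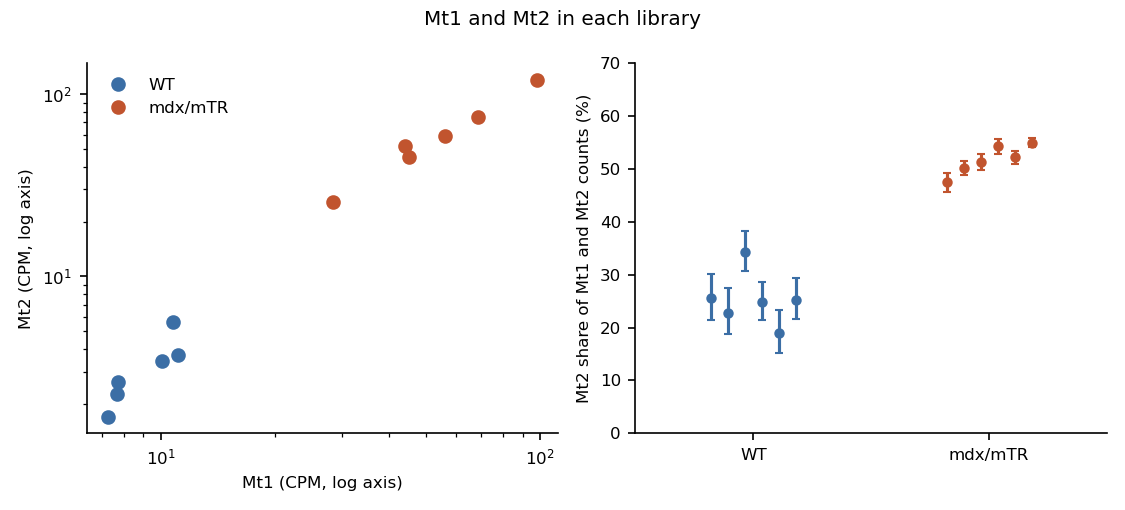
Left, Mt2 against Mt1 in CPM (both axes logarithmic), 1 point per library, WT in blue and mdx/mTR in orange. Right, Mt2 as a percentage of the counts of both genes, with 95% Wilson intervals as bars, which spans 19.0% to 34.3% in WT libraries but 47.5% to 54.9% for mdx/mTR.

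In the authors' deposited table, whose column names are those of DESeq2, the log2 fold changes were 3.31 for Mt2 and 2.31 for Mt1. Both are smaller than the values fitted here, and DESeq2 run on the deposited counts gave 4.28 and 2.63. The cause of the difference was not tested. For the other 8 genes the authors' deposited table gave the same directions as the fit, from -1.04 for Slc30a2 to 0.40 for Slc39a14.

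The activity of MTF1, the zinc sensor that drives the metallothionein genes, was not measured. The level of its gene Mtf1 (chr4:124802104-124849800) was slightly lower in mdx/mTR. It measured 33.9 to 41.4 CPM in WT with a median of 36.0, and 29.4 to 35.8 CPM in mdx/mTR with a median of 30.5. Of the 6 mdx/mTR libraries 5 lay below the lowest WT library, and replicate 1 reached into the WT range. The log2 fold change was -0.22 ± 0.06 (SE), a mean of 85.9% of WT. With library totals alone as scaling, which moved the median of all genes to 0.17, it was -0.0657 ± 0.055 (SE). The opposite-strand gene 1110065P20Rik shares 8.86% of the 50-base stretches of Mtf1.

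A list of 8 other genes reported as MTF1 targets went both ways, with more genes lower than higher in the main fit. All 8 were tested, and 2 were higher and 5 lower, where 25% and 23.4% of all tested genes were, with a median log2 fold change of -0.19 beside 0.014 for all genes. Slc40a1, which encodes the iron exporter ferroportin, fell to 35.0 ± 4.93 CPM from 71.6 ± 6.67 in WT (SD, n = 6 each), a log2 fold change of -1.03 ± 0.09 (SE, edgeR adjusted p = 2.1e-06). Its groups did not overlap. Cebpa, which encodes a transcription factor of fat and myeloid cells, rose by 0.82 ± 0.16 on the log2 scale (edgeR adjusted p = 9e-04), with 1 mdx/mTR library inside the WT range. With library totals alone 2 of the 8 genes were lower. The count of higher genes was 1 without replicate 2 or 3 of mdx/mTR and without replicate 1, 3 or 5 of WT.

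Among the exporters the transporters parted. Slc30a1 (chr1:191906767-191913247) encodes ZnT1, the main zinc exporter of the plasma membrane. It measured 13.2 to 17.2 CPM in WT with a median of 15.7 and 14.5 to 18.7 CPM in mdx/mTR with a median of 15.8. The ranges lay nearly on top of each other, and the log2 fold change was 0.09 ± 0.08 (SE), or 0.25 with library totals alone. Mt1 and Mt2 differed by far more in the same libraries, and the part of MTF1 in these levels was not tested.

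Slc30a2 (chr4:134343181-134354484) encodes ZnT2, which loads zinc into vesicles. It was the 1 gene of the 10 with lower levels in every mdx/mTR library. WT libraries held 17.1 to 28.8 CPM with a median of 25.8, and mdx/mTR libraries 5.62 to 16.3 CPM with a median of 10.7. The gap between the groups was small, since replicate 2 of WT and replicate 1 of mdx/mTR were near each other. The mean of 11.4 ± 3.99 CPM in mdx/mTR was 46.0% of the 24.8 ± 4.55 CPM in WT (SD, n = 6 each), and the log2 fold change was -1.12 ± 0.21 (SE).

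Slc30a4 (chr2:122681233-122702663) encodes ZnT4, another vesicular transporter. Its WT range of 33.5 to 40.2 CPM overlapped the mdx/mTR range of 36.2 to 40.7 CPM for the most part. The log2 fold change was 0.05 ± 0.05 (SE), and 0.21 with library totals alone. Its promoter window held more matches to the metal response core than that of Slc30a1.

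Of the 4 importers, the groups did not overlap for Slc39a14 and overlapped for Slc39a1, Slc39a10 and Slc39a8. Slc39a14 (chr14:70303469-70351425) encodes ZIP14, a transporter of zinc, iron and manganese that inflammation induces in liver. It was tight in WT, at 20.2 to 21.5 CPM with a median of 21.2, and spread over 23.9 to 34.4 CPM in mdx/mTR with a median of 26.3. No mdx/mTR library fell into the WT range, and replicates 5 and 6 stood well above the other 4. The mean was 133.7% of WT, a log2 fold change of 0.42 ± 0.09 (SE).

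Slc39a1 (chr3:90248172-90253612) encodes ZIP1, a widely expressed importer of the plasma membrane. Its WT libraries held 30.3 to 35.9 CPM with a median of 31.4, and the others ran from 30.9 to 46.0 CPM in mdx/mTR with a median of 38.7. Of 6 mdx/mTR libraries 4 lay above the highest WT library. The log2 fold change was 0.26 ± 0.08 (SE), and 0.42 with library totals alone. Its value is uncertain, because 21.8% of its 50-base stretches also occur in the pseudogene Slc39a1-ps.

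Slc39a10 (chr1:46807544-46892852) encodes ZIP10, an importer of the plasma membrane. Its WT libraries held 8.12 to 12 CPM, those of mdx/mTR 8.37 to 11.5 CPM, and 1 library in each group stood away from the rest. The groups overlapped, with a log2 fold change of 0.20 ± 0.10 (SE).

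Slc39a8 (chr3:135825279-135888572) encodes ZIP8, which carries zinc, manganese and cadmium. It was the scarcest of the 10 genes, also per length, at 0.888 to 1.65 CPM for WT libraries and 1.36 to 1.78 CPM for mdx/mTR, or 32 to 92 counts per library. The groups overlapped, and the log2 fold change was 0.27 ± 0.15 (SE).

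Levels were compared between genes per kilobase of the longest principal transcript. The length of Mt1 decides its place: with its longest coding transcript (1085 bases in place of 549) it had 8.39 ± 1.62 CPM per kilobase in WT (SD, n = 6), below Slc39a1 and beside Slc30a2, and 52.3 ± 22.4 in mdx/mTR, still second to Mt2. This alternative was chosen after seeing the data, and the other 9 genes have the same length under both rules. The values that follow use the principal transcripts. In WT, Mt1 had 16.6 ± 3.21 CPM per kilobase and Slc39a1 13.6 ± 0.928 (SD, n = 6), and their ranges of 1 SD overlapped. Slc30a2 (7.86 ± 1.44), Slc30a4 (6.85 ± 0.459) and Mt2 (6.31 ± 2.72) followed and overlapped too. Mtf1 (4.77 ± 0.358) and Slc39a14 (4.28 ± 0.0984) came next, both within 1 SD of Mt2. Slc30a1 (2.93 ± 0.314), Slc39a10 (1.70 ± 0.246) and Slc39a8 (0.356 ± 0.0711) stood apart from these and from each other at the lower end.

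In mdx/mTR, Mt2 led with 123 ± 62.9 CPM per kilobase and Mt1 followed with 103 ± 44.2, with wide overlap. Slc39a1 (16.3 ± 2.25), Slc30a4 (7.08 ± 0.289), Slc39a14 (5.72 ± 0.970) and Mtf1 (4.10 ± 0.314) followed, each more than 1 SD from the next. Slc30a2, now at 3.62 ± 1.27, overlapped with Mtf1 above it and with Slc30a1 (3.12 ± 0.314) below it. Slc39a10 (1.95 ± 0.223) and Slc39a8 (0.432 ± 0.0459) were again lowest.

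**Figure D3:**
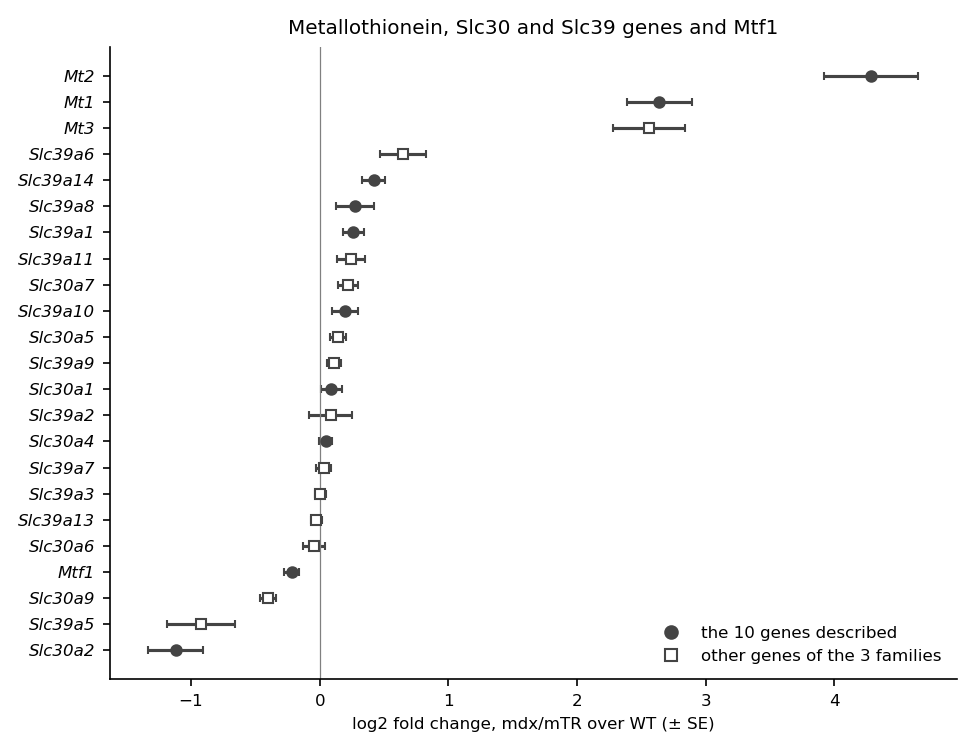
Difference between mdx/mTR and WT as a log2 fold change (horizontal axis) with its SE for every tested metallothionein, Slc30 and Slc39 gene and Mtf1, sorted by size. Filled circles are the 10 genes described and open squares the other members of the families; the 3 metallothioneins stand apart at 2.56 to 4.29, and all transporters lie between -1.12 and 0.65.

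The rest of the metallothionein, Slc30 and Slc39 families was taken whole and tested. Of 19 such genes 13 passed the filter on low counts, 3 rose and 2 fell in mdx/mTR, and the median log2 fold change was 0.08 beside 0.014 for all genes. Beside them, 25% of all tested genes were higher and 23.4% lower, and with 13 genes nothing is read from the difference. With library totals alone as scaling 9 of them rose, where 5596 of all 13937 tested genes were higher. The groups did not overlap for 1 gene that rose and 1 that fell, beside 12.6% of all genes in each direction.

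Mt3, the metallothionein best known from brain, rose with Mt1 and Mt2 from a low level. It measured 0.361 to 1.15 CPM in WT with a median of 0.487, and 2.45 to 4.59 CPM in mdx/mTR with a median of 3.23. The groups did not overlap, and the log2 fold change was 2.56 ± 0.28 (SE, edgeR adjusted p = 1.15e-05). Its highest mdx/mTR library was replicate 2, not replicate 6 as for Mt1 and Mt2. Mt4, the metallothionein of stratified epithelium, had 0 counts in WT and 0 to 3 per library in mdx/mTR, below what these libraries can measure.

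Among the other exporters, 4 of 7 were tested, 1 rose and 1 fell. Slc30a9, which encodes a mitochondrial zinc transporter, held 124 to 137 CPM in WT libraries and fell to 83.9 to 112 CPM in mdx/mTR. The groups did not overlap, and the log2 fold change was -0.40 ± 0.06 (SE, edgeR adjusted p = 0.000185). Slc30a7, which encodes a transporter of the early secretory pathway, rose by 0.22 ± 0.08 on the log2 scale (edgeR adjusted p = 0.0311). That call was lost without replicate 2 or 5 of mdx/mTR and without replicate 2, 3 or 6 of WT. Slc30a5 (0.14, edgeR adjusted p = 0.0716) and Slc30a6 (-0.04, edgeR adjusted p = 0.702) did not pass. Slc30a3 (0 to 2 counts per library), Slc30a8 (0 in all) and Slc30a10 (0 to 2) were too low to test.

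Among the other importers, 8 of 10 were tested, 1 rose and 1 fell. Slc39a6, which encodes ZIP6 and is the closest relative of ZIP10, rose from 2.67 to 3.80 CPM in WT to 3.78 to 7.82 CPM in mdx/mTR. All but 1 mdx/mTR library lay above WT, replicate 5 was highest, and the log2 fold change was 0.65 ± 0.18 (SE, edgeR adjusted p = 0.00904). Slc39a5, an importer best known from gut and pancreas, fell by 0.92 ± 0.26 on the log2 scale (edgeR adjusted p = 0.0105) from a mean of 0.462 CPM in WT, on only 8 to 20 counts per mdx/mTR library.

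No call was made for Slc39a2 (0.08), Slc39a3 (0.00), Slc39a7 (0.03), Slc39a9 (0.11), Slc39a11 (0.24) and Slc39a13 (-0.03), with edgeR adjusted p from 0.0839 to 0.94. Slc39a7 is the ZIP of the endoplasmic reticulum and Slc39a13 that of the Golgi. Slc39a4 (0 to 7 counts per library) and Slc39a12 (1 to 18) were too low to test.

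Of the 3 protein-coding neighbours on each side of the metallothionein cluster 5 were tested. Of these 1 rose and 2 fell, beside 25% and 23.4% of all tested genes, and 5 genes are too few to set against these shares. Their log2 fold changes ran from -0.23 to 0.32 with a median of 0.01. Bbs2, a gene of the ciliary BBSome, rose by 0.32 (edgeR adjusted p = 0.0168). Ogfod1, a hydroxylase gene, fell by 0.22 (edgeR adjusted p = 0.00787) and Herpud1, a gene of endoplasmic reticulum stress, fell by 0.23 (edgeR adjusted p = 0.0105). Nudt21 (0.09, edgeR adjusted p = 0.669) and Nup93 (0.01, edgeR adjusted p = 0.945) did not pass, and Slc12a3 was too low to test. With library totals alone Ogfod1 and Herpud1 were at -0.0697 and -0.0767 and were no longer called.

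The other known inducers of metallothionein genes were read from their own target lists. Of 14 genes that glucocorticoids induce, all were tested, 3 were higher and 1 lower, beside 25% and 23.4% of all tested genes, with a median log2 fold change of -0.01. The count of lower genes was 0 with library totals alone and without replicate 1 of WT. Sesn1, a stress-induced regulator of mTORC1, rose by 0.45 ± 0.08 (SE, edgeR adjusted p = 0.00037) and its groups did not overlap. Glul, which encodes glutamine synthetase, rose by 1.07 ± 0.27 (SE, edgeR adjusted p = 0.0048), though 1 mdx/mTR library lay below all WT libraries.

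Of 14 genes of IL-6 family signalling through STAT3, 12 were tested, 9 were higher and 0 lower, beside 25% and 23.4% of all tested genes, with a median log2 fold change of 0.56. Without replicate 4 of mdx/mTR, and without replicate 1 of WT, 1 gene was lower. Il6 and Osm, 2 ligands of the list, were too low to test. Serpina3n, an acute-phase protease inhibitor, rose by 3.79 ± 0.44 (SE, edgeR adjusted p = 1.8e-05), from 1.88 to 2.65 CPM in WT to 6.59 to 61.4 CPM in mdx/mTR. Socs3, the feedback inhibitor of the pathway, rose by 1.90 ± 0.38 (SE, edgeR adjusted p = 0.0011), from 3.82 to 7.75 CPM in WT to 8.37 to 44.7 CPM in mdx/mTR. Neither gene's groups overlapped. Bcl3, a co-regulator of NF-kappa B, rose by 1.51 ± 0.28 (SE, edgeR adjusted p = 0.00063), and Junb, an AP-1 subunit, by 1.09 ± 0.27 (SE, edgeR adjusted p = 0.0046).

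Markers of other cells moved with the metallothioneins between the groups. Of 10 macrophage markers 9 were higher, beside 25% of all tested genes. Their summed level was 102 to 174 CPM in WT against 280 to 747 CPM in mdx/mTR. All 7 markers of regenerating fibres were higher, at 26.5 to 29.2 CPM in WT against 108 to 538 CPM in mdx/mTR. Of 7 markers of fibro-adipogenic progenitors 6 were higher, at 1580 to 2130 and 3110 to 4370 CPM, and of 5 tendon markers 4 were higher, at 131 to 203 and 238 to 480 CPM.

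Other lists were lower or mixed, where 25% of all tested genes were higher and 23.4% lower. Schwann cell markers fell in 4 of 5 genes, from 41.8 to 53.3 CPM in WT to 22.3 to 34.6 CPM in mdx/mTR, and endothelial markers fell in 3 of 6 and rose in 1, at 425 to 568 and 349 to 469 CPM. Satellite cell markers (1 higher and 2 lower of 5), neutrophil markers (1 higher of 2 tested), T cell markers (1 higher of 1 tested) and adipocyte markers (0 called of 4 tested) completed the lists. The T cell marker tested was Cd4, while Cd3e, Cd3d, Cd3g and Cd8a were too low to test. Ly6g of the neutrophil list and Trac of the T cell list were not among the 24421 genes. No other marker of any list was at 0 in all 12 libraries. In bulk tissue a change in the number of cells of a type and a change in RNA per cell cannot be told apart, and the part of these cells in the levels of Mt1, Mt2, Mt3 and the transporters was not tested.

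The order of the mdx/mTR libraries differed between the markers and the metallothioneins. Replicate 5 was highest in macrophage markers, at 747 CPM, and in markers of regenerating fibres, at 538 CPM. Replicate 6, where Mt1 and Mt2 were highest, had 293 CPM of macrophage markers and 127 CPM of regenerating fibre markers, the lowest but 1 in both lists.

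Relations of Mt2 with 6 other measures were computed within each group on log2(CPM + 0.5), 12 relations in all. Exact two-sided permutation tests over 720 pairings were used, with Benjamini-Hochberg adjustment over the 12. In mdx/mTR, Mt2 followed Mt1 closely, with r = 0.991 (exact permutation p = 0.00278, adjusted p = 0.0334, n = 6) and rho = 0.943 (exact permutation p = 0.0167, adjusted p = 0.0668). Without the 2 libraries farthest from the median of Mt2, replicates 1 and 6, r was 0.944. In WT, Mt2 and Mt1 gave r = 0.886 (exact permutation p = 0.0167, adjusted p = 0.0668, n = 6) and rho = 0.943 (exact permutation p = 0.0167, adjusted p = 0.0668), and r = 0.964 without replicates 3 and 5.

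In WT, Mt2 also rose and fell with the mean of the glucocorticoid list, with r = 0.962 (exact permutation p = 0.00694, adjusted p = 0.0416, n = 6) and rho = 0.943 (exact permutation p = 0.0167, adjusted p = 0.0668). Without replicates 3 and 5 r was 0.789. On the CPM scale in place of log2 it was 0.597 and did not pass (exact permutation, adjusted p = 0.657). In mdx/mTR the same relation was r = -0.277 (exact permutation p = 0.611, adjusted p = 0.857, n = 6) and rho = -0.314 (exact permutation p = 0.564, adjusted p = 0.964), and r = 0.00 without replicates 1 and 6. The difference between the groups in this relation was not tested.

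With Slc39a14, Mt2 gave r = 0.801 in mdx/mTR (exact permutation p = 0.0431, adjusted p = 0.129, n = 6) and rho = 0.657 (exact permutation p = 0.175, adjusted p = 0.525), with r = 0.719 without replicates 1 and 6. This did not pass the adjustment. With macrophage markers the value in mdx/mTR was r = 0.273 (exact permutation p = 0.624, adjusted p = 0.857, n = 6) with rho = 0.257 (exact permutation p = 0.658, adjusted p = 0.964), and r was 0.786 without replicates 1 and 6. The remaining 6 relations, with Slc30a1 and Mtf1 in both groups and with Slc39a14 and macrophage markers in WT, ran from r = -0.54 to 0.511 with adjusted p of 0.566 or more, and from rho = -0.371 to 0.6 with adjusted p of 0.581 or more (exact permutation tests).

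**Figure D4:**
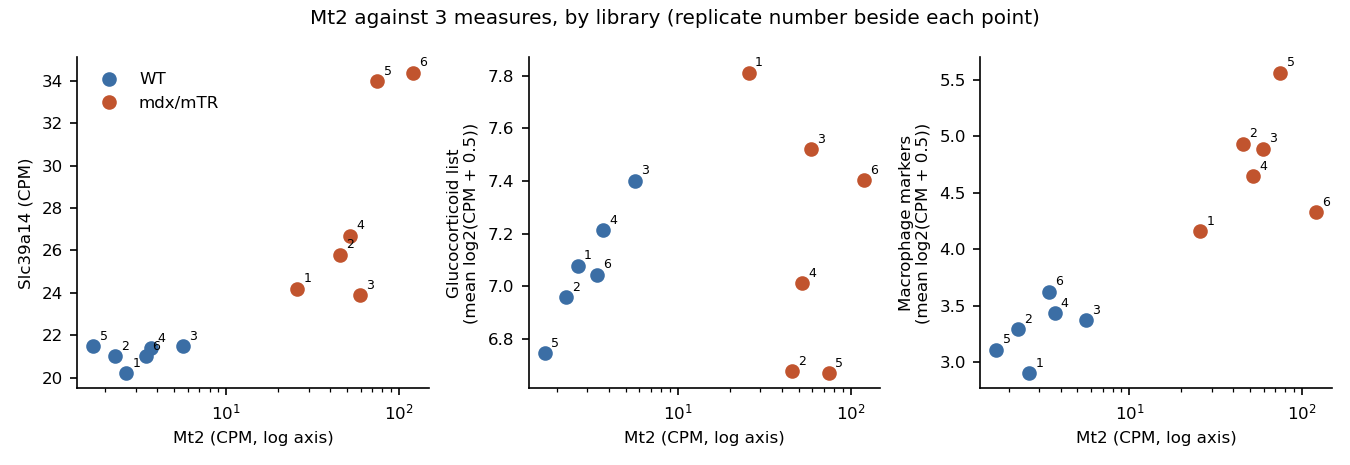
Mt2 in CPM (horizontal, logarithmic) against Slc39a14 in CPM, the mean of the glucocorticoid list and the mean of the macrophage markers, both as mean log2(CPM + 0.5), with the replicate number beside each point. WT libraries (blue) line up with the glucocorticoid list (r = 0.962) and mdx/mTR libraries (orange) do not (r = -0.277), and replicate 6 of mdx/mTR combines the highest Mt2 with the lowest macrophage value but 1 of its group.

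As a description across all 12 libraries, each gene was centred on its group mean and the 12206 genes of at least 1 CPM were ranked by Pearson r with Mt2. Mt1 ranked first, with r = 0.947. Card14, a scaffold gene of NF-kappa B signalling in skin, followed with 0.846, and Cadm3 (0.829), Sned1 (0.824) and Fam179a (0.821) came next. Of the zinc genes Slc39a14 ranked 83 (r = 0.666) and Slc39a1 360 (r = 0.525), while Mtf1 was at r = -0.378. All these genes share the same libraries and scaling.

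For Slc39a14 the most alike were Csf2rb2 (0.936), a receptor subunit for IL-3, Pprc1 (0.93), a coactivator related to PGC-1, Il4ra (0.919), the receptor chain for IL-4 and IL-13, Tead3 (0.904), a transcription factor of the Hippo pathway, and Bcl3 (0.903). In mdx/mTR, Il4ra was at 36.9 and 36.5 CPM in replicates 5 and 6 and at 18.9 to 20.1 CPM in the other 4. Replicates 5 and 6 were also the libraries where Slc39a14 was high.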

How the data were processed

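Messenger RNA of tibialis anterior muscle was measured in 6 WT and 6 mdx/mTR libraries. The authors deposited whole-number counts per gene symbol, 1 column per library, and a table of their own comparison whose log2 fold changes are named by DESeq2's column names, per the file headers. The submitters' processing notes name FastQC, STAR, DESeq2 and mm10, with no versions. The counter, annotation and strand handling are not given in the sources used here. Groups and replicate numbers came from the labels, and 0 columns were left unmatched.

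The deposited counts were fitted with edgeR 4.0.16 in R 4.3.3 (filterByExpr, TMM, quasi-likelihood, group as the only term), which kept 13937 of 24421 genes with 99.97% of counts, and p-values were adjusted by Benjamini-Hochberg at 0.05 over all of them. An SE is the log2 fold change divided by the square root of F. CPM use TMM-scaled totals, and a count of 0 allows up to 3 counts, for counting error only. Replicate libraries differed by more than sampling noise (chi-square per degree of freedom 9.14 to 128), so none was counted as a duplicate. The fit was also run on simulated counts with few genes changed, equally up and down. That run does not check the scaling, and nothing is read from it here. Relations used scipy 1.17.1. Alternatives were other scalings, other filters, DESeq2 1.42.0, limma-voom (limma 3.58.1), a replicate block and each library left out. Coordinates, transcript lengths (longest principal transcript) and shared 50-base stretches (of the longest coding transcript) came from GENCODE M21, and promoter windows and neighbours from RefSeq (GRCm38.p6). No protein sequence was used here.

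The genes and lists were chosen with earlier results of these data known. Named were all 10 genes, the rest of their families, the cluster neighbours, in each list the 2 genes with the smallest p and any called gene with at least a 2-fold change, and the 5 genes most like Mt2 and Slc39a14.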

Additional observations from a re-analysis of the deposited data

Results flagged for a closer look

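Among 48 groups of 6 libraries looked at, 3 had a library far from the others, where chance gives about 1 in 20 groups, or 2.4 here. Slc39a10 was at 12 CPM in WT replicate 2, and the other WT libraries held 8.12 to 9.38 CPM. Slc39a10 was also at 8.37 CPM in mdx/mTR replicate 3, and the other mdx/mTR libraries held 10.4 to 11.5 CPM. Mt3 was at 1.15 CPM in WT replicate 6, and the other WT libraries held 0.361 to 0.583 CPM. Without that library the log2 fold change of Mt3 was 2.88.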

How the results depend on the processing

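Library totals alone moved the median over all genes from 0.014 to 0.169 on the log2 scale and the split of calls from 3479 higher and 3257 lower to 5596 and 1560, and upper quartile scaling gave 3955 and 2699. Under library totals 8 of the 10 genes passed in place of 6, as Slc30a4, Slc39a8 and Slc39a10 gained a call and Mtf1 lost its own. The 10 genes were chosen on this contrast, so their calls are a description only. The other family genes that rose numbered 6 with upper quartile scaling and 9 with library totals, and 1 fell under a filter of at least 1 CPM in 6 libraries, which tests fewer genes. The r of Mt2 with the glucocorticoid list in WT was 0.597 on the CPM scale. Without the 2 libraries farthest from the median of Mt2, r was 0.786 with macrophage markers in mdx/mTR, and 0.532 with Slc39a14 and 0.879 with Slc30a1 in WT. Directions changed for Slc30a6 (0.107) and Slc39a13 (0.129) with library totals, for Slc39a13 (0.0136) with upper quartile scaling, for Slc39a3 with size factors (-0.00135) and DESeq2 (-0.00143), and for Mt2 with the glucocorticoid list in mdx/mTR without 2 libraries (r = 0.00413), and the cause was not tested. With each library left out, calls ran from 6125 to 6816, the other family genes that rose from 2 to 4 and those that fell stayed at 2. In the same fits log2 fold changes of Slc30a6 ran from -0.0858 to 0.00551, of Slc39a2 from -0.00572 to 0.189, of Slc39a3 from -0.02 to 0.0172, of Slc39a7 from -0.0159 to 0.0572, of Nudt21 from -0.00706 to 0.157 and of Nup93 from -0.0536 to 0.0473. With a replicate block 6420 genes and 6 of the 10 were called. Same-numbered libraries deviated together (r over 0.1) in 2 of 6 pairs, so the numbers were not taken as pairs. DESeq2 called 6951 genes and limma-voom 6618. The low counts of Slc39a8, Slc39a5, Mt3 and of Mt2 in WT limit their precision.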

Other observations

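Copper, which metallothioneins also bind, was read from 11 genes of its handling. Of these 9 were tested, 3 were higher and 2 lower, beside 25% and 23.4% of all tested genes, with a median log2 fold change of 0.06. With library totals alone 6 were higher and 0 lower. The count of lower genes was 1 with upper quartile scaling, with a filter of at least 1 CPM in 6 libraries and with the replicate block. It was also 1 in 9 of the 12 fits that left out a library (any mdx/mTR replicate but 2, and WT replicates 3 to 6), and 3 without replicate 2 of mdx/mTR. Atox1, the chaperone that hands copper to the ATPases of the secretory pathway, rose from 13.8 to 15.8 CPM in WT to 17.6 to 22.1 CPM in mdx/mTR, by 0.44 ± 0.07 on the log2 scale (SE, edgeR adjusted p = 0.00013). Atp7a, one such ATPase, rose by 0.23 ± 0.06 (SE, edgeR adjusted p = 0.0073), and the groups of both genes did not overlap.

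In a tally made after the values were seen, 6 of the 12 tested genes of the STAT3 list had their highest mdx/mTR level in replicate 6, as Mt1 and Mt2 did, 3 in replicate 5 and 1 each in replicates 1, 3 and 4. The 6 were Socs3, Stat3, Osmr, Junb, Bcl3 and Il6st. Socs3 was at 44.7 CPM there and at 8.37 to 22.5 CPM in the other 5 libraries. Stat3 was at 156 CPM against 89.0 to 132 CPM, and the receptor gene Osmr at 30.7 CPM against 15.4 to 22.9 CPM. Bcl3 (5.63 against up to 5.39 CPM) and Il6st (290 against up to 289 CPM) were barely above replicates 5 and 4. Serpina3n was highest in replicate 5, at 61.4 CPM. The share of all tested genes with their highest level in replicate 6 was not computed. A relation of Mt2 with the STAT3 list was not tested, so nothing is read from this tally.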
